A study of Mus musculus with 2 samples.

Results

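The 9 genes of bone morphogenetic protein (BMP) signalling described here were followed across the cells of the mouse aorta: the ligand Bmp4, the receptors Bmpr2, Acvrl1 and Eng, the signal transducers Smad1 and Smad6, and the inhibitors of DNA binding Id1, Id2 and Id3. They were taken by gene symbol from the deposited count table, which held all 9 of them among 16971 genes. The table comes from a single-cell atlas of the normal aorta. Single cells were sequenced in droplets after enzymatic dissociation of the whole aorta. The mice were wild-type C57/BL6 females on chow and were 12 weeks of age. All samples share this one genotype, diet and treatment, so the comparisons are between cell populations and not between treatments. The table held 5451 cells in 2 libraries, library 1 with 2260 cells and 11104066 UMIs (unique molecular identifiers, each counting a captured transcript) and library 2 with 3191 cells and 19484171 UMIs. Both libraries contributed cells to each of the 10 populations named by the authors. These were endothelial (EC 1, EC 2 and EC 3, with 425, 229 and 94 cells), smooth muscle (VSMC, 2159 cells), fibroblast (Fibro 1 and Fibro 2, 1147 and 634 cells), immune (Mono 1, Mono 2 and Macro, 443, 109 and 167 cells) and Neuron (44 cells).

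In BMP signalling a secreted ligand brings together type II receptors, among them Bmpr2, and type I receptors. Which type I receptor is used depends on the ligand and the cell. Bmpr1a is that of Bmp4 in many cells, and Acvrl1 (ALK1) is the type I receptor typical of endothelium. Endoglin, the product of Eng, is a co-receptor of endothelial cells that presents ligands to Acvrl1. The activated type I receptor phosphorylates Smad1 and its relatives Smad5 and Smad9, which enter the nucleus with Smad4 and switch on targets that include the Id genes, while Smad6 and Smad7 are induced inhibitors of the route. Id proteins pair with E proteins, the basic helix-loop-helix factors encoded by Tcf3, Tcf4 and Tcf12, and keep them off DNA. In human vessels, mutations of ACVRL1 and ENG cause hereditary haemorrhagic telangiectasia, and mutations of BMPR2 cause heritable pulmonary arterial hypertension.

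The authors' names were set against marker lists. The 10 endothelial markers summed to 5603 to 7085 CPM (UMIs of a gene scaled to all UMIs of the population, mean of the libraries) in the EC populations, against 73.5 to 178 CPM in the 7 other populations. EC 3 also held the lymphatic list, at 21345 CPM. Macro and Neuron went against their names. Macro held T and NK cell genes at 1645 CPM and B cell genes at 1172 CPM, with the macrophage list at 99.3 CPM and its marker Adgre1 at 0. Neuron held the Schwann cell list at 9153 CPM. Median depth per cell ran between 2468 and 6950 UMIs over the populations. The smooth muscle transcript Acta2 was counted outside VSMC at 2.29% to 8.34% of its VSMC level. It is given as a guide to free or carried-over RNA, and whether these counts came from such RNA was not tested. The libraries shared 12 barcodes. The populations had been named by clustering on these same counts, so the p-values below are not independent of the naming. The labels describe separate mice, and the spread given is that between 2 libraries.

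**Figure D1:**
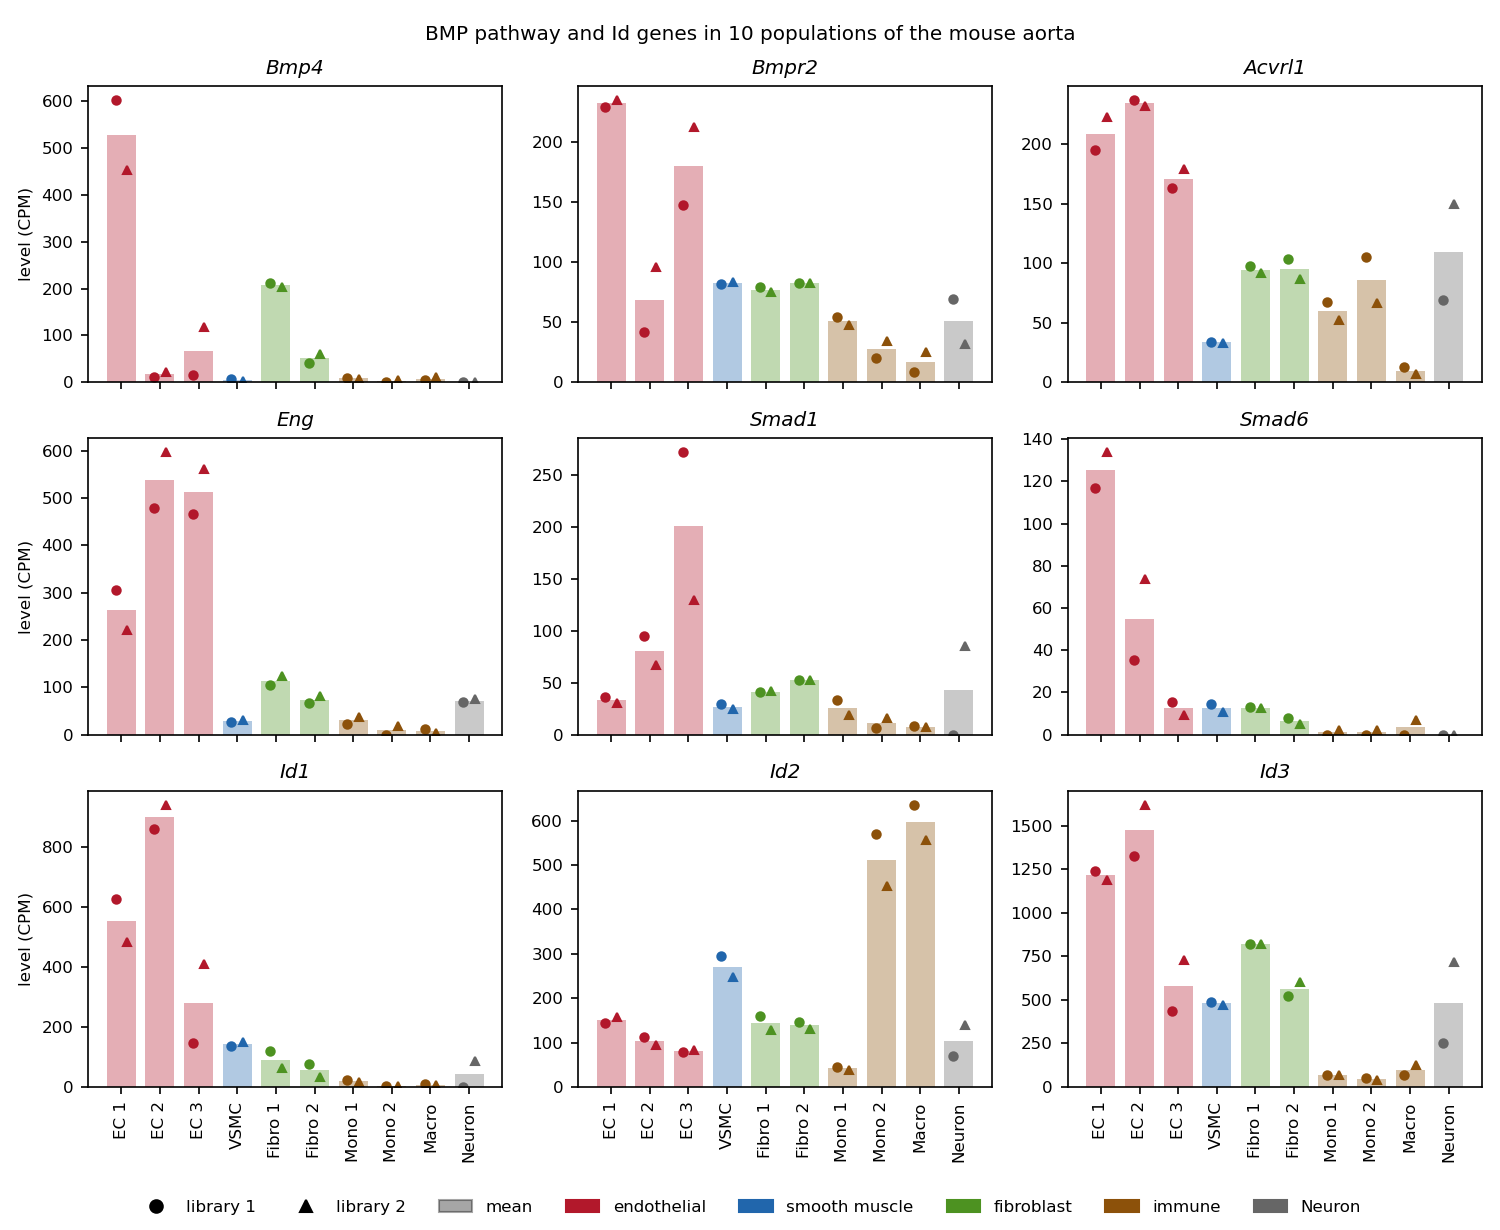
Level of each gene in the 10 populations. Bars are means over the libraries in CPM on a linear axis with its own range for each gene, circles are library 1, triangles are library 2, and colours mark the class of the population. Bmp4, Bmpr2 and Smad6 have their highest mean in EC 1, Acvrl1, Eng, Id1 and Id3 in EC 2, Smad1 in EC 3, and Id2 in Macro, next to Mono 2.

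Bmp4, the ligand, was concentrated in one endothelial and one fibroblast population. EC 1 held 602 CPM of Bmp4 in library 1 and 452 CPM in library 2 (527 ± 106, SD, n = 2 libraries, as for every level below). EC 2 held 11.8 and 21.8 CPM of it in libraries 1 and 2, and EC 3 held 15.5 and 117 CPM. Both libraries of EC 1 thus lay above those of every other population, and EC 3 differed widely between its libraries. Fibro 1 held 212 and 203 CPM of Bmp4, and Fibro 2 held 41.3 and 61.0 CPM. These stood apart from each other, and Fibro 2 overlapped EC 3. VSMC held 7.05 and 3.29 CPM, 0.981% of the EC 1 level. Mono 1 held 10.0 and 8.00 CPM of Bmp4, and Mono 2 and Macro had 2 and 4 UMIs, so that Mono 1, Macro, VSMC and Mono 2 overlapped one after the other. With every cell thinned to 1300 UMIs, Bmp4 was found in 40.5% of EC 1 cells (95% exact Clopper-Pearson interval 35.8 to 45.3, for counting error only) and in 21.6% of Fibro 1 cells, against 0.648% of VSMC cells. Without thinning these shares were 63.1%, 50.2% and 2.87%, at median depths of 4010, 5513 and 6025 UMIs.

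The receptors were highest in endothelium, each with its own order. Bmpr2, the type II receptor, held 229 and 235 CPM in libraries 1 and 2 of EC 1, 41.4 and 95.7 CPM in EC 2, and 147 and 213 CPM in EC 3. Its levels in VSMC (81.7 and 83.7 CPM), Fibro 1 (79.5 and 74.7 CPM) and Fibro 2 (82.6 and 82.5 CPM) lay close together, and EC 2 overlapped them all. Mono 1 held 54.3 and 48.0 CPM of Bmpr2, overlapping EC 2, and Mono 2 held 20.4 and 34.3 CPM. Macro, which overlapped Mono 2, was lowest at 8.37 and 24.8 CPM. Acvrl1, the type I receptor, was nearly even over endothelium, with 195 and 223 CPM in EC 1, 237 and 232 CPM in EC 2, and 163 and 179 CPM in EC 3. The libraries of these populations did not overlap, but no pair passed the test given below with all cells. Outside endothelium Acvrl1 reached 94.6 ± 4.43 CPM in Fibro 1, 95.1 ± 12.1 CPM in Fibro 2 and 85.9 ± 27.4 CPM in Mono 2, which overlapped each other, and it was at 67.2 and 52.0 CPM in Mono 1 and 33.9 and 33.0 CPM in VSMC. Macro, with 12.6 and 7.08 CPM of Acvrl1, was lowest.

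Eng, the co-receptor, was lower in EC 1 than in the other EC populations. It held 305 and 222 CPM in EC 1, 479 and 596 CPM in EC 2, and 466 and 561 CPM in EC 3, where EC 2 and EC 3 overlapped. Fibro 1 followed with 104 and 123 CPM and Fibro 2 with 66.3 and 81.7 CPM. VSMC held 27.5 and 31.7 CPM, 5.51% of the EC 2 level, and overlapped Mono 1 with 22.9 and 36.8 CPM. Mono 2, with 0 and 18.1 CPM, and Macro, with 12.6 and 3.54 CPM, were lowest and overlapped. In thinned cells Eng was found in 24.7% of EC 1 cells, 49.3% of EC 2 cells and 51.1% of EC 3 cells, against 0.599% of Macro cells.

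Smad1 and Smad6 had opposite orders within endothelium. Smad1, a transducer that BMP receptors phosphorylate, held 36.3 and 30.1 CPM in EC 1, 94.7 and 67.2 CPM in EC 2, and 272 and 129 CPM in EC 3. EC 3 was highest in each library, although its libraries lay far apart. Fibro 2 held 52.8 and 52.5 CPM of Smad1 and Fibro 1 held 40.5 and 41.5 CPM, so that EC 1 was below both fibroblast populations. VSMC held 29.0 and 24.5 CPM of Smad1 and overlapped Mono 1, which held 32.9 and 19.2 CPM, while Mono 2 had 10 UMIs and Macro had 4. Smad6, the inhibitory Smad, held 117 and 134 CPM in EC 1, 35.5 and 73.9 CPM in EC 2, and 15.5 and 9.25 CPM in EC 3. Outside endothelium it held 14.4 and 10.5 CPM in VSMC, 12.7 ± 0.36 CPM in Fibro 1, and 7.68 and 4.81 CPM in Fibro 2, where VSMC overlapped both Fibro 1 and EC 3. The immune populations had 3 UMIs of Smad6 in Mono 1, 1 in Mono 2 and 2 in Macro, all overlapping. With 602 UMIs over all cells, Smad6 was the most thinly counted of the 9 genes, and in thinned cells it was found in 13.4% of EC 1, 7.42% of EC 2 and 1.06% of EC 3 cells, against 0.451% of Mono 1 cells.

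Id1 and Id3 were both highest in EC 2, next in EC 1 and lowest in the immune populations, whereas Id2 was highest in Macro and Mono 2. Id1 held 626 and 481 CPM in EC 1, 858 and 940 CPM in EC 2, and 147 and 410 CPM in EC 3. VSMC followed with 137 and 149 CPM, overlapping EC 3, and then Fibro 1 with 120 and 62.2 CPM and Fibro 2 with 76.8 and 33.3 CPM, which overlapped. In immune cells Id1 was close to nil: Mono 1 held 24.3 and 16.0 CPM, Mono 2 had 3 UMIs and Macro had 4. In thinned cells Id1 was found in 47.5% of EC 1, 64.2% of EC 2 and 24.5% of EC 3 cells, against 0 of 109 Mono 2 cells, which allows a share of up to 2.75% of cells with a UMI at this depth (3 counts of the total). Without thinning 3 of the 109 had a UMI of Id1.

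Id3, with 18377 UMIs the most deeply counted of the 9, had UMIs in every population. It held 1243 and 1189 CPM in EC 1, 1326 and 1622 CPM in EC 2, and 435 and 731 CPM in EC 3. Fibro 1 held 820 and 821 CPM of Id3, Fibro 2 held 521 and 602 CPM, and VSMC held 490 and 472 CPM. EC 3 overlapped Fibro 2 and VSMC but not Fibro 1. The immune populations lay apart from all of these, with 67.2 and 68.0 CPM in Mono 1, 50.9 and 42.3 CPM in Mono 2, and 71.1 and 127 CPM in Macro. These are 4.59%, 3.16% and 6.74% of the EC 2 level. Acta2 was at 3.34%, 2.29% and 3.74% of its VSMC level in the same populations, and the part of free RNA in these levels of Id3 was not tested. EC 2 held 1190 of the 18377 UMIs of Id3, so the percentages of Id3 and Acta2 have unlike bases.

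Id2, which innate lymphoid cells and some dendritic cells need to develop, was highest in immune populations. Macro held 636 and 556 CPM and Mono 2 held 571 and 453 CPM of it, which overlapped, while Mono 1 held 44.3 and 39.2 CPM, the lowest level of any population. VSMC came next after Mono 2, with 295 and 248 CPM. Id2 was lower in endothelium, with 145 and 158 CPM in EC 1, 112 and 94.0 CPM in EC 2, and 77.6 and 83.2 CPM in EC 3. Fibro 1 at 143 ± 22.2 CPM and Fibro 2 at 139 ± 10.4 CPM overlapped each other and EC 1.

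Neuron, with 44 cells and 136944 UMIs, gives the least precise levels. It had 0 UMIs of Bmp4 and of Smad6, which allows a level of up to 21.9 CPM over both libraries. Smad1 and Id1 each had 0 UMIs in library 1 and 8 in library 2. Of the receptors it held 69.3 and 32.0 CPM of Bmpr2, 69.3 and 150 CPM of Acvrl1 and 69.3 and 74.8 CPM of Eng, from 3 UMIs of each in library 1. Id2 was at 69.3 and 139 CPM and Id3 at 254 and 716 CPM. Its libraries overlapped those of both fibroblast populations for Acvrl1 and Id2, and those of Fibro 2 and VSMC for Id3.

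The start regions of Smad6, Id3 and Id2 are shown because the first 2 were high in EC 1 and EC 2 and Id2 was not. They are from RefSeq on GRCm38.p6 and were matched by symbol, as were those of 7 of the 9 genes. Each holds the 250 bases before the annotated start, 5′ to 3′ on the gene's strand. Capitals mark GTCTAGAC, the palindrome that Smad proteins bind, or GGCGCC, a core of the BMP-responsive element known from the Id1 gene. Both motifs equal their own reverse complement and do not overlap each other, and they were chosen after the sequences had been read. The Smad6 region, chr9:64022056-64022309 on the minus strand, runs 4 bases past the start, since GTCTAGAC lies across it.
Smad6: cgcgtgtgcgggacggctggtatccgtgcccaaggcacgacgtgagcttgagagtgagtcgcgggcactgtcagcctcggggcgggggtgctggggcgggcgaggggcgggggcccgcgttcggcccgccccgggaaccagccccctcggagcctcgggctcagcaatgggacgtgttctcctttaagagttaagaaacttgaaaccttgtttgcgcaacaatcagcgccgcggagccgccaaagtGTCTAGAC
The Id3 region, chr4:136143572-136143821 on the plus strand, holds neither motif.
Id3: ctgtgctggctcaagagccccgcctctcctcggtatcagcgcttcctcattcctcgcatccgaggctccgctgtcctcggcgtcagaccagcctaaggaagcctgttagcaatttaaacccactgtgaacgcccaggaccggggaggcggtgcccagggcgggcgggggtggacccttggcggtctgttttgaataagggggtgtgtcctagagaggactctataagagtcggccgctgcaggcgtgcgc
The Id2 region, chr12:25096093-25096342 on the minus strand, holds GGCGCC 231 to 226 bases before the start.
Id2: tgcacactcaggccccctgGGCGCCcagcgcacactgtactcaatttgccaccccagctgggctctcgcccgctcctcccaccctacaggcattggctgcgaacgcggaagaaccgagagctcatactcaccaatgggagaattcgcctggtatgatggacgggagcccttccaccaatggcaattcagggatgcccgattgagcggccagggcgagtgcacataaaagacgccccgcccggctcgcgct
GTCTAGAC is in 70 of 32851 start windows of 300 bases (0.213%) and GGCGCC in 3898 of them (11.9%). Bmpr2 was the only other of the 7 with a match, to GGCGCC. A match is a run of letters and is not shown to be bound.

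Levels were then compared between classes of cells. For every population the UMIs of each library were added up and fitted with edgeR's quasi-likelihood test, with the library as a block and Benjamini-Hochberg adjustment over the 10488 genes tested, which include all 9 members. Each class (endothelial, smooth muscle, fibroblast, immune) was taken as the mean of its populations and set against the mean of the other 3. A gene is called when its adjusted p is under 0.05. Fold changes are log2 values with a standard error derived as the absolute fold divided by the square root of F, and each called member had the same direction in both libraries.

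In endothelium 8 of the 9 members were higher and 1, Id2, was lower than in the other classes. Of all genes tested, 33.1% were called in this comparison, 17.4% higher and 15.7% lower. Id1 was higher by 3.51 ± 0.18 (adjusted p = 1.61e-16) and Eng by 3.44 ± 0.12 (adjusted p = 2.68e-21). These were the widest differences among the 9. Acvrl1 was higher by 1.91 ± 0.12, Id3 by 1.68 ± 0.11, Smad1 by 1.38 ± 0.18 and Bmpr2 by 1.23 ± 0.13. Not every EC population was higher: Smad1 in EC 1 (33.2 CPM) was below Fibro 1 and Fibro 2 (41.0 and 52.7 CPM). Bmpr2 in EC 2 overlapped VSMC and both fibroblast populations. Bmp4 in EC 2 (16.8 CPM) was below Fibro 1 and Fibro 2 (207 and 51.2 CPM), and in EC 3 (66.3 CPM) it was below Fibro 1. Smad6 in EC 3 (12.4 CPM) was close to VSMC and Fibro 1 (12.5 and 12.7 CPM). Id3 in EC 3 (583 CPM) was below Fibro 1 (820 CPM), and Id1 in EC 3 overlapped VSMC. The members concentrated in EC 1 had wider errors, Smad6 with 2.74 ± 0.49 and Bmp4 with 2.56 ± 0.36. Bmp4 was at 1.69 in library 1 and 2.76 in library 2. Id2 was lower, at -1.09 ± 0.10 (adjusted p = 2.39e-10). The median fold over the 9 was 1.91, against -0.04 over all genes tested. With cells thinned to 1300 UMIs Smad6 was not called, at 2.47 (adjusted p = 0.0537 with edgeR).

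The other genes of the pathway were counted from lists of ligands, receptors, Smads, antagonists, targets and Id partners, 45 genes of which 34 were tested. In endothelium 8 of the 34 were higher and 9 lower, against 17.4% and 15.7% of all genes tested, with a median fold of -0.23. All 3 E protein genes, the partners of the Id proteins, were higher: Tcf4 by 1.44 ± 0.11, Tcf12 by 0.57 ± 0.16 and Tcf3 by 0.51 ± 0.16. Smad7, the other inhibitory Smad, was higher by 1.42 ± 0.22, but its fold was -1.24 with no call in thinned cells. Hey1, a target known from endothelial BMP9 signalling, was called higher, with 84.6 ± 10.9 CPM in EC 2 against 0 UMIs in Mono 2 and Macro. Bmpr1a, the type I receptor of Bmp2 and Bmp4 in many cells, was lower, at -1.37 ± 0.27. The antagonists had 1 member higher and 6 lower of 11 tested, among them Fstl3, at -2.51 ± 0.43, Fst, at -2.20 ± 0.75, Chrdl1, at -1.91 ± 0.53, and Twsg1, at -1.32 ± 0.20. The ligands Gdf10, at -1.89 ± 0.27, and Bmp2, with 0 UMIs in EC 3, were called lower too. The receptor Acvr2b, with 0 UMIs in Macro, and the co-receptor Tgfbr3, by 0.58 ± 0.20, were called higher. In thinned cells the calls of Bmpr1a, Tgfbr3, Fst, Twsg1, Tcf12 and Tcf3 were lost. Those of Tgfbr3, Tcf12 and Tcf3 were also lost when the 335 endothelial cells with at least 2 pericyte or 10 haemoglobin UMIs were left out, and those of Acvr2b and Tcf3 with no filter on low counts. With Macro left out of the immune class the calls of Acvr2b and Tgfbr3 were lost.

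**Figure D2:**
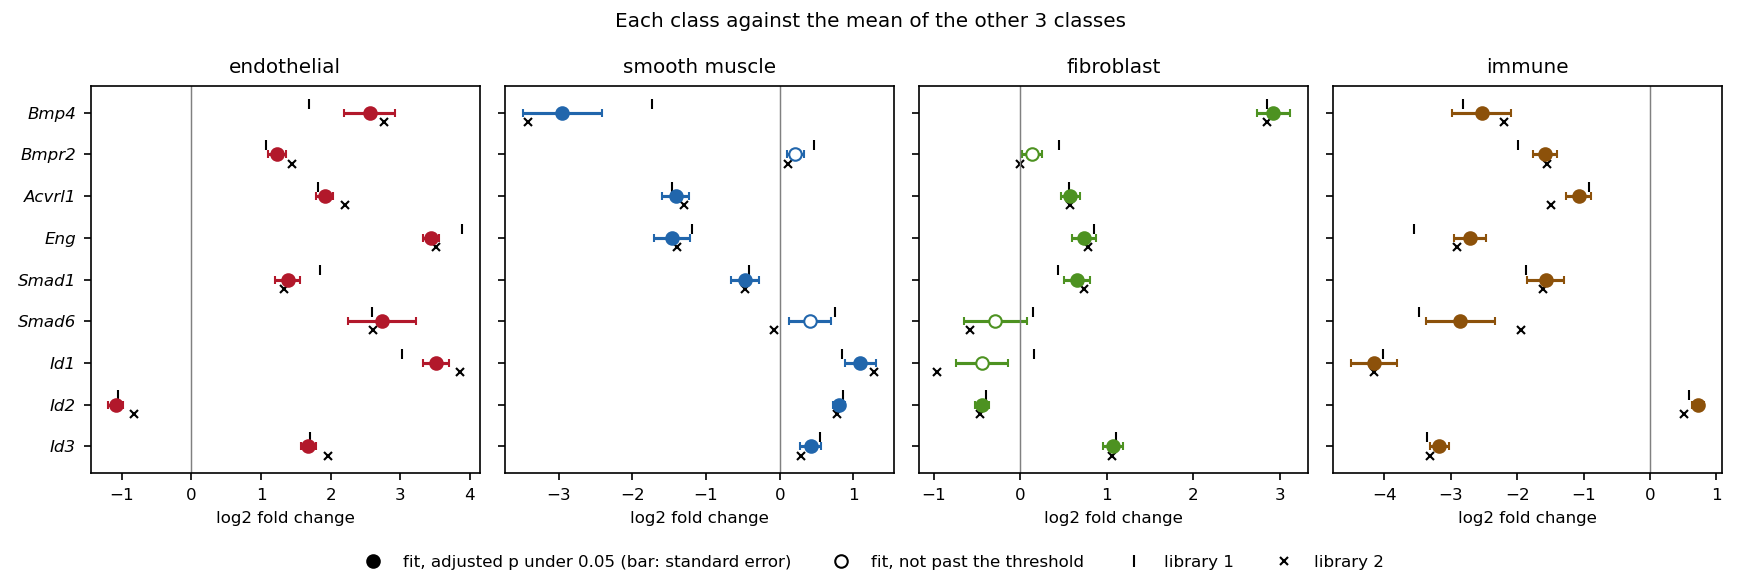
Log2 fold of each gene in one class against the mean of the other 3 classes, on linear axes that differ between panels. Circles are the fit with bars of 1 standard error, filled where the adjusted p is under 0.05, and the black signs are each library's own fold. The endothelial class has 8 genes to the right and Id2 to the left of 0, and the immune class has the reverse.

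In smooth muscle the 3 Id genes were higher than the mean of the other classes, and Bmp4, Eng, Acvrl1 and Smad1 were lower. Of all genes 49.3% were called, 28.7% higher and 20.6% lower. Id1 was higher by 1.09 ± 0.21, Id2 by 0.81 ± 0.08 and Id3 by 0.42 ± 0.14. That mean includes immune cells, where Id1 and Id3 were lowest. The mean Id1 level of VSMC, 143 CPM, was below those of EC 1, EC 2 and EC 3 (554, 899 and 279 CPM). Its mean Id3 level, 481 CPM, was below those of all EC and both fibroblast populations, which ran between 562 and 1474 CPM. Bmp4 was lower, at -2.95 ± 0.54, with -1.73 in library 1 and -3.41 in library 2. Eng was lower, at -1.46 ± 0.24, Acvrl1 at -1.41 ± 0.18 and Smad1 at -0.47 ± 0.19. Bmpr2 at 0.21 ± 0.12 and Smad6 at 0.41 ± 0.28 were not called, although Bmpr2 was called with no filter on low counts and when the same 335 endothelial cells were left out. Smad1 and Id3 were near the threshold (adjusted p = 0.0370 and 0.0160 with edgeR). Both calls were lost with DESeq2 and with no library block, and that of Smad1 also with no filter on low counts, with doublets left out and in thinned cells, where its fold was -0.10.

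Of the other pathway genes, 12 of 34 were higher and 5 lower in smooth muscle, against 28.7% and 20.6% of all genes tested. Bmpr1a was higher by 2.55 ± 0.12, with 140 ± 0.03 CPM in VSMC against 52.7 ± 11.5 CPM in EC 1. Id4, the fourth Id gene, was called higher, at 46.7 ± 7.98 CPM in VSMC against 3.30 ± 4.66 CPM in EC 1 and 0 UMIs in Mono 2. Among 11 antagonists 6 were higher and none was lower. Fstl3, which binds activins and BMPs, was higher by 3.73 ± 0.15 and Twsg1 by 1.83 ± 0.12. The ligand Bmp3 was higher by 2.92 ± 0.31. Hey2, a target shared with Notch signalling, was higher by 2.85 ± 0.21. Tcf4 was lower, at -1.37 ± 0.15 and Tcf3 at -0.99 ± 0.14. Gdf10, at -1.13 ± 0.20, the transducer Smad2, at -0.77 ± 0.17, and the target Tmem100, at -3.09 ± 0.36, were also lower. Bmp2, Atoh8 and the antagonist Chrd were called higher, and each had 0 UMIs in at least 1 population of the other classes. The calls of Gdf10 and Smad2 were lost in thinned cells, and that of Tmem100 with the 335 cells left out.

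In fibroblasts 5 members were higher, 1 lower and 3 not called, with 46.9% of all genes called, 27.6% higher and 19.3% lower. Bmp4 was higher by 2.93 ± 0.19, Id3 by 1.07 ± 0.12, Eng by 0.74 ± 0.14, Smad1 by 0.65 ± 0.15 and Acvrl1 by 0.58 ± 0.11. Id2 was lower, at -0.45 ± 0.08. Bmpr2, Smad6 and Id1 did not pass the threshold, although Id1 was called lower with no filter on low counts, and Id1 was at 0.16 in library 1 and -0.97 in library 2. In thinned cells the calls of Acvrl1 and Id2 were lost. Of the other pathway genes 23 of 34 were higher than in the mean of the other classes and none was lower, with a median fold of 1.26 against 0.0027 over all genes tested. All 4 tested ligand-list genes were higher. Gdf10 (BMP3B) was higher by 4.69 ± 0.11, with 537 ± 31.4 CPM in Fibro 1, and Bmp1, a metalloprotease that cleaves procollagen and the antagonist chordin, by 3.28 ± 0.12. Of the 11 antagonists 10 were higher, among them Fst by 4.76 ± 0.20 and Chrdl1 by 3.85 ± 0.18. Tmem100, an ALK1 target in endothelium, was higher in fibroblasts by 4.67 ± 0.15. Bmp3 was higher by 1.31 ± 0.38, and among receptors and co-receptors Tgfbr3 was higher by 2.51 ± 0.12, Rgmb by 1.28 ± 0.18, Bmpr1a by 1.23 ± 0.14 and Acvr1 by 0.93 ± 0.21. Tcf4 was higher by 0.69 ± 0.11 and Smad5 by 0.36 ± 0.14, and Smad5 lost its call with DESeq2, with no library block, with no filter on low counts, with doublets left out and in thinned cells. Bmp2, Bmper, Chrd, Msx1 and Id4 were called higher, and each had 0 UMIs in at least 1 population of the other classes.

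In immune cells Id2 was higher and the other 8 members were lower, with 50.2% of all genes called, 22.5% higher and 27.7% lower. Id2 was higher by 0.73 ± 0.09 in the class mean. Mono 2 and Macro held 512 and 596 CPM of it, while Mono 1, at 41.8 CPM, was the lowest of any population. Id1 was lower, at -4.16 ± 0.35, Id3 at -3.17 ± 0.15 and Eng at -2.71 ± 0.24. Smad6 was lower, at -2.86 ± 0.52 and Bmp4 at -2.53 ± 0.44, and these folds rest on few UMIs. Bmpr2 was lower, at -1.58 ± 0.18, Smad1 at -1.57 ± 0.28 and Acvrl1 at -1.08 ± 0.19. The median over the 9 was -2.53, against -0.11 over all genes tested. With the class made of Mono 1 and Mono 2 and without Macro, which holds lymphocyte genes, the calls of Id2 and Acvrl1 were lost. Of the other pathway genes 25 of 34 were lower and 1, Smad2, was higher. Smad2 was higher by 0.64 ± 0.24. Among receptors and co-receptors Tgfbr3 was lower, at -3.38 ± 0.28, Bmpr1a at -2.42 ± 0.27, Acvr1 at -1.26 ± 0.39 and Rgmb at -1.02 ± 0.34. Of the ligand list Bmp1 was lower, at -2.84 ± 0.32, Bmp3 at -2.50 ± 0.77 and Gdf10 at -1.66 ± 0.27. The antagonists Fstl1, at -3.61 ± 0.14, and Nbl1, at -2.92 ± 0.17, the inhibitor Smad7, at -1.01 ± 0.24, and the E protein genes Tcf4, at -0.76 ± 0.14, and Tcf12, at -0.57 ± 0.19, were lower. The antagonist Chrd had 0 UMIs in all 3 immune populations, and Atoh8, Hey1, Msx1 and Id4, each with 0 UMIs in at least 1 of them, were called lower. In thinned cells the calls of Acvr1, Smad7, Smad2, Hey1, Id4 and Tcf12 were lost, and with the 335 endothelial cells left out those of Acvr1, Rgmb, Chrd, Msx1 and Id4. Bmp3 and Msx1 lost theirs with doublets left out, Chrd and Msx1 without the endothelial cells that had 2 or more pericyte UMIs, and Rgmb without Macro.

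The atlas was made to describe the endothelial populations, and EC 1 and EC 2 differed in 7 of the 9 members. Bmp4, Bmpr2, Smad6 and Id2 were higher in EC 1, where 20.3% of all genes were called, 11.1% higher and 9.23% lower. Bmp4 was higher by 4.82 ± 0.36 (adjusted p = 4.99e-12), Bmpr2 by 1.63 ± 0.22, Smad6 by 1.11 ± 0.27 and Id2 by 0.75 ± 0.20. Smad1 was lower in EC 1, at -1.09 ± 0.34, Eng at -0.98 ± 0.17 and Id1 at -0.63 ± 0.21. Acvrl1 at -0.01 ± 0.17 and Id3 at -0.13 ± 0.20 were not called. The libraries differed most in Bmp4, at 5.47 in library 1 and 4.31 in library 2, and Bmpr2, at 2.42 and 1.28. They also differed in Smad6, at 1.67 and 0.85, Eng, at -0.65 and -1.42, Id1, at -0.45 and -0.96, and Id2, at 0.36 and 0.75. The calls of Smad6 and Id1 were lost with DESeq2 (adjusted p = 0.0509 and 0.493), that of Id1 with no library block (edgeR, adjusted p = 0.271), and those of Smad1 and Smad6 in thinned cells (edgeR, adjusted p = 0.216 and 0.0611).

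Other gene groups moved between the same populations. Pericyte genes summed to 71.5 CPM in EC 1, with Notch3 and Higd1b at 0, against 984 CPM in EC 2, where all 7 were detected. Of 17 immediate early genes, which dissociation can induce, 9 were lower and none higher in EC 1, with sums of 3526 CPM in EC 1 and 6229 CPM in EC 2. Haemoglobin genes summed to 16555 and 5846 CPM in libraries 1 and 2 of EC 1, and 3623 and 23324 CPM in those of EC 2. The part of the immediate early genes in the member folds was not tested. Without the 70 endothelial cells that had 2 or more pericyte UMIs, 6 of the 7 calls were kept and Smad1 was lost (-0.90, adjusted p = 0.105). Without the 335 cells rich in pericyte or haemoglobin UMIs, 4 were kept (Bmp4, Bmpr2, Eng and Id1), and Smad6, Smad1 and Id2 were lost.

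Among the other pathway genes 6 of 34 were higher and 6 lower in EC 1 than in EC 2. The shares over all genes tested were 11.1% and 9.23%. Hey2 had 52 and 107 UMIs in libraries 1 and 2 of EC 1, against 1 and 2 in EC 2. Hey1 was lower in EC 1, at -3.19 ± 0.51, at 9.94 ± 4.60 CPM against 84.6 ± 10.9 CPM in EC 2. The type I receptors Bmpr1a and Acvr1 were higher in EC 1, by 2.52 ± 0.42 and 2.05 ± 0.51, and the co-receptor Tgfbr3 was lower, at -1.54 ± 0.31. The receptor Acvr2b was lower too, at -2.48 ± 0.74. Smad7 was higher by 1.25 ± 0.27, in the direction of Smad6. The antagonists Fstl1 and Nbl1 were higher, by 2.97 ± 0.23 and 1.46 ± 0.28. The targets Atoh8, at -3.03 ± 0.51, and Tmem100, at -2.93 ± 0.80, were lower in EC 1, and Tmem100 was at -0.19 in library 1 and -3.47 in library 2. In thinned cells the calls of Acvr1, Tgfbr3 and Tmem100 were lost, and that of Tmem100 also with the 335 cells left out. The E protein gene Tcf4 was lower, at -2.34 ± 0.20, at 158 ± 0.36 CPM in EC 1 against 878 ± 69.3 CPM in EC 2.

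**Figure D3:**
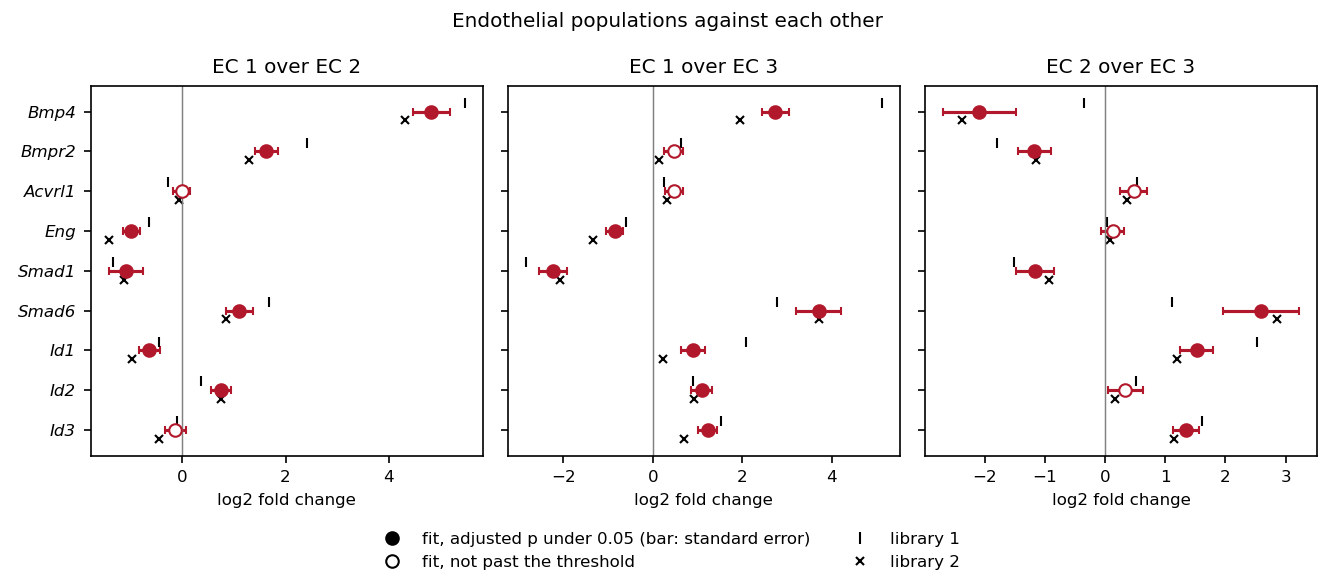
Log2 fold of each gene between pairs of endothelial populations, first named over second, on linear axes that differ between panels. Circles are the fit with bars of 1 standard error, filled where the adjusted p is under 0.05, and the black signs are each library's own fold. Bmp4 has the widest gap between libraries in the panels with EC 3.

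Against EC 3, the population with lymphatic genes, EC 1 was higher in 5 members and lower in 2. Of all genes 11.6% were called, 5.97% higher and 5.64% lower. Smad6 was higher in EC 1 by 3.70 ± 0.50, Bmp4 by 2.74 ± 0.30, Id3 by 1.22 ± 0.21, Id2 by 1.09 ± 0.24 and Id1 by 0.90 ± 0.27. EC 3 had 2 and 3 UMIs of Smad6 in libraries 1 and 2, and 2 UMIs of Bmp4 in library 1. The fold of Smad6 thus rests on few UMIs, as does that of Bmp4 in library 1. Smad1 was lower, at -2.24 ± 0.31 and Eng at -0.85 ± 0.19. The libraries differed for Bmp4, at 5.12 in library 1 and 1.94 in library 2, and for Id1, at 2.07 and 0.23. They also differed for Smad6, at 2.78 and 3.71, Id3, at 1.51 and 0.70, Smad1, at -2.84 and -2.07, and Eng, at -0.61 and -1.33. The call of Id1 was lost with DESeq2 and with no library block. With the same 335 cells left out the calls of Id1 and Id2 were lost, and Acvrl1 was called higher, at 1.36.

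EC 2 was higher than EC 3 in 3 members and lower in 3, with 11.7% of all genes called, 5.52% higher and 6.17% lower. Smad6 was higher in EC 2 by 2.60 ± 0.63, Id1 by 1.53 ± 0.27 and Id3 by 1.35 ± 0.22. The fold of Smad6 is set against 5 UMIs in EC 3. Bmp4 was lower, at -2.09 ± 0.60, Bmpr2 at -1.17 ± 0.28 and Smad1 at -1.16 ± 0.32. Bmp4 rests on library 2, which gave -2.37 against -0.35 in library 1, where each population had 2 UMIs, and its call was lost with DESeq2. The libraries also differed for Smad6, at 1.11 in library 1 and 2.87 in library 2, Id1, at 2.53 and 1.20, and Bmpr2, at -1.79 and -1.14. In thinned cells 3 members were called (Bmpr2, Id1 and Id3), and without the cells rich in pericyte or haemoglobin UMIs, which leaves 12 cells of EC 3 in library 1, 3 were called (Id1, Id3 and Acvrl1). In EC 3 Tmem100 held 43.3 ± 4.60 CPM, against 3.14 ± 2.55 CPM in EC 1, where it was called lower, at -3.91 ± 0.77.

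Fibro 1 was higher than Fibro 2 in 5 members and lower in none. Of all genes 15.5% were called, 8.3% higher and 7.2% lower. Bmp4 was higher by 1.93 ± 0.20 (adjusted p = 8.37e-09), Smad6 by 1.18 ± 0.39, Id1 by 0.83 ± 0.28, Eng by 0.62 ± 0.17 and Id3 by 0.57 ± 0.19. Smad6 was at 0.64 in library 1 and 1.21 in library 2. Only Bmp4 stayed called with DESeq2 and with no library block. The antagonists moved both ways between these populations, with 2 of 11 higher and 5 lower. Fst was lower in Fibro 1, at -1.48 ± 0.18, and Fstl3 was higher by 1.45 ± 0.20. Tmem100 was lower, at -3.16 ± 0.15, at 51.7 ± 19.4 CPM in Fibro 1 against 484 ± 43.5 CPM in Fibro 2.

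Between Mono 1 and Mono 2 the only member called was Id2, lower in Mono 1, at -3.73 ± 0.17 (adjusted p = 8.63e-17), where 17.1% of all genes were called, 9.01% higher and 8.12% lower. In thinned cells Id2 was found in 4.51% of Mono 1 cells (2.78 to 6.89) and 37.6% of Mono 2 cells (28.5 to 47.4). Unthinned shares were 12.9% and 73.4%, at median depths of 4261 and 6950 UMIs. Dendritic cell genes summed to 67.5 CPM in Mono 1 and 708 CPM in Mono 2, and macrophage genes to 22602 CPM in Mono 1 and 2221 CPM in Mono 2. Tcf4, an E protein gene, was higher in Mono 1 by 2.12 ± 0.26, opposite to Id2.

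The cells of Mono 2 and Macro were divided by marker UMIs to see which of them held Id2. In Mono 2 the 55 cells with at least 2 UMIs of dendritic genes held 634 and 426 CPM of Id2, and the 54 others held 485 and 493 CPM, so the parts overlapped. Median depth was 8170 UMIs in the former and 5239 UMIs in the latter. A fixed cut of 2 UMIs can leave shallow dendritic cells among the others. In Macro the 84 cells with T and NK cell genes held 846 and 620 CPM, and the 34 cells with neither lymphocyte list held 803 and 890 CPM. The 48 cells with B cell genes were apart, with 2 UMIs in each library and 33.8 and 34.2 CPM. Id1 had 0 UMIs in the T and NK part, and Id3 was at 47.0 and 128 CPM there and at 118 and 85.5 CPM in the B cell part. These are descriptions of parts chosen after earlier results were known, and no test was run on them.

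**Figure D4:**
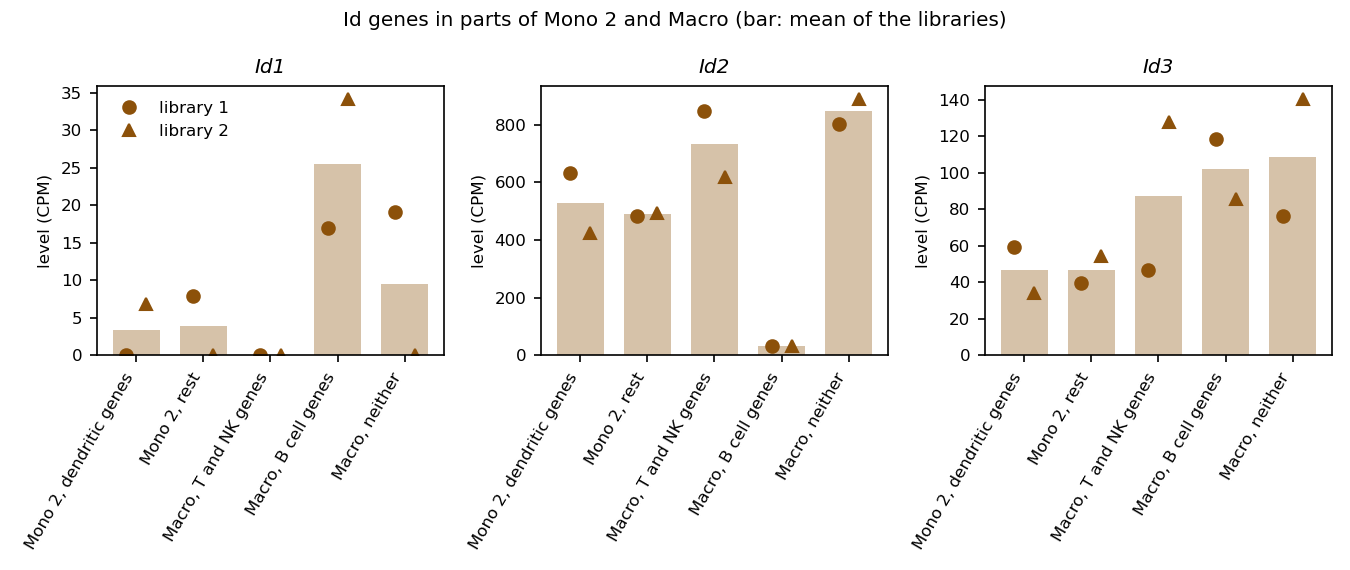
Level of the Id genes in parts of Mono 2 and Macro set apart by marker UMIs. Bars are means of the libraries in CPM, from 0, circles are library 1 and triangles library 2. Id2 is near 34 CPM in Macro cells with B cell genes and between 426 and 890 CPM in the other 4 parts.

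Within a population, cells were asked whether the Id genes were found together, after thinning. In VSMC, Id3 was found in 52.7% of the 167 cells with Id1 and 39.1% of the 936 without in library 1, and in 49.1% of 161 and 37.5% of 895 in library 2. In EC 1 the libraries went opposite ways, with Id3 in 70.0% of cells with Id1 and 76.9% without in library 1, and in 81.1% and 70.3% in library 2. In EC 2 it was found in 83.9% and 68.0% in library 1 and in 84.5% and 77.2% in library 2. In library 2 of EC 3 it was found in 84.2% of 19 cells with Id1 and 31.7% of 41 without. In Fibro 1 the shares were close, at 60.4% with Id1 and 55.2% without in library 1 and at 56.3% and 56.0% in library 2. In Fibro 2 they were 56.3% of 16 cells and 40.8% of 191 in library 1, and 66.7% of 15 and 44.4% of 412 in library 2. For Bmp4 and Id1 in EC 1 the order was the reverse. Id1 was found in 39.4% of cells with Bmp4 and 53.7% of those without in library 1, and in 43.4% and 50.3% in library 2. In Fibro 1 this pair went opposite ways, at 18.8% and 12.3% in library 1 and 4.76% and 6.79% in library 2. In EC 1, Id1 was found in 39.1% of 23 cells with Smad6 and 48.8% of 125 without in library 1. The shares in library 2 were 41.2% and 48.6%. In library 2 of EC 2 they were 60.0% and 67.7%, and in that of Fibro 1 they were 0% of 13 cells and 6.45%. In VSMC the order was the other way, at 16.7% and 15.1% in library 1 and 23.5% and 15.1% in library 2. Id2 was found in 34.1% of VSMC cells with Id1 and 26.2% without in library 1, and in 36.0% and 22.9% in library 2. It was also found more often with Id1 in EC 1 and Fibro 2, and went opposite ways between libraries in EC 2 and Fibro 1. Cells of 1 library are not replicates, so these shares carry no test.

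**Figure D5:**
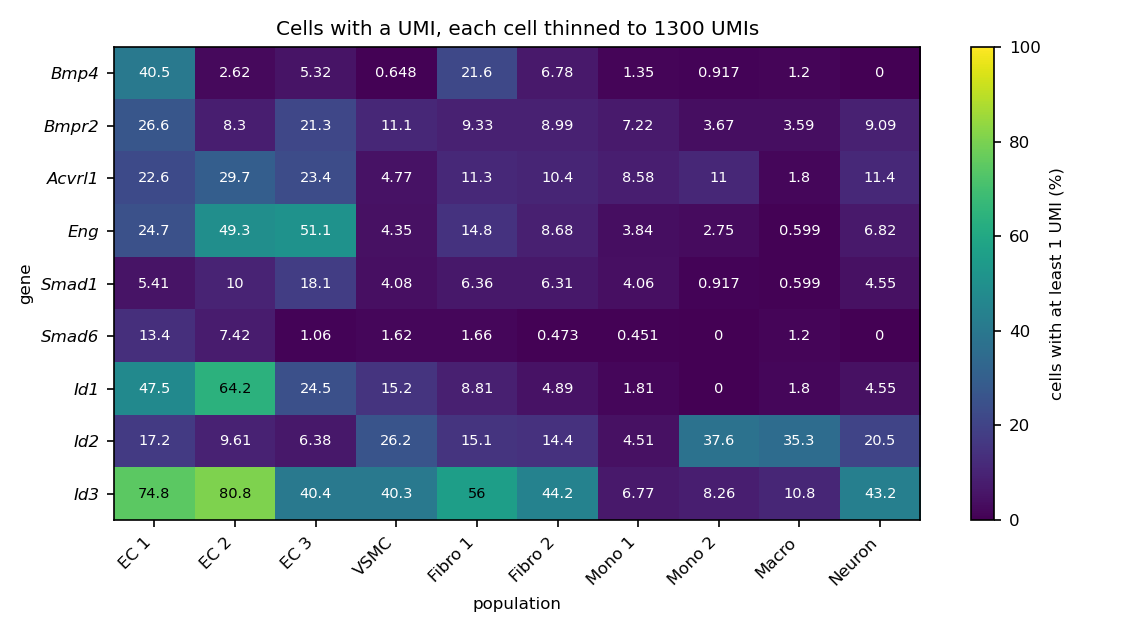
Percent of cells of each population with at least 1 UMI of each gene, both libraries together, after each cell was thinned to 1300 UMIs. The colour scale runs from 0 to 100%. Id3 is found in 74.8% of EC 1 and 80.8% of EC 2 cells, and Smad6 in no more than 13.4% of any population.

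Across the 10 populations, profiles of the members were compared with those of 9894 genes by Pearson's r of log2(CPM + 10), as a description in which all points share the same 2 libraries. Among the members, Id1 and Smad6 (r = 0.88), Eng and Id1 (0.88), Eng and Smad1 (0.87) and Id1 and Id3 (0.87) were most alike, and Id2 had a negative r with each of the other 8. The genes most like Id1 were Cav1 (r = 0.98), Hoxb8 (0.97) and Tnfaip1 (0.97). Cav1 encodes the coat protein of caveolae. Those most like Id3 were Hoxb2 (0.96), Mecom (0.95) and Ubr1 (0.95), and those most like Id2 were Cct2 (0.90), Plp2 (0.88) and Elac2 (0.88). Bmp4 was most like Plekha6 (0.97), Kcnt2 (0.97) and Mamstr (0.93). For the receptors the first genes were Fkbp1a for Bmpr2 (0.96), followed by Gabarapl1 (0.95) and Spaca6 (0.95), and Tnfrsf1a for Acvrl1 (0.91), followed by Lrrc57 (0.90) and Ifit3b (0.89). Fkbp1a encodes FKBP12, which binds BMP type I receptors. Eng was most like Gnb1 (0.98), Arhgap29 (0.97) and Ephb4 (0.96), a receptor of venous endothelium. Smad1 was most like Amacr (0.97), Vps41 (0.96) and Zfp180 (0.95), and Smad6 like Ptprm (0.97), Pik3c2b (0.96) and Crispld1 (0.93).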

How the data were processed

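Single cells of 2 aortas (1 group) were counted in droplet libraries. Per the submitters' processing notes, Cell Ranger 2.1 was used. The deposited values are raw UMI counts per gene and cell, and the authors' population names were used as deposited. Per the labels, tissue was digested for 1 hour at 37 °C. The genome build and annotation are not given in the sources used here. From the values, the deposited cells had at most 14968 UMIs and 24.9% mitochondrial UMIs. Cells were put in library 1 or 2 by barcode suffix, and which labelled aorta each one is was not used. Doublets were kept in the main fit. Cells were thinned once, with a fixed seed, and none was too shallow.

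UMIs were summed per library and population with at least 10 cells and tested with edgeR 4.0.16 (R 4.3.3), filterByExpr, TMM and 1 quasi-likelihood fit over all 10 populations with library as a block (residual degrees of freedom 9, common dispersion 0.013). The script was tested on simulated data. Library folds are log2 CPM ratios with a prior count of 2. The members, lists, tests and alternatives were chosen with earlier results of these data known. All 9 members are named. Other pathway genes are named, for the class comparisons and EC 1 against EC 2, when they are among the 4 called genes of their list with the largest absolute fold and at least 50 UMIs. Folds of genes with 0 UMIs in a population compared are left out. A gene that meets this rule is not reported here. Tmem100 in EC 1 against EC 3, Fst, Fstl3 and Tmem100 in the fibroblast pair and Tcf4 in the monocyte pair were chosen after their values were seen. Genes most like a member were the 3 with the highest r among those with at least 200 UMIs.

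The results were recomputed with DESeq2 1.42.0 in place of edgeR, with RLE size factors, without the filter on low counts and with no replicate block. They were also recomputed from each library alone, at 1300 UMIs for every cell, with equal weight of cells (5 CPM added), and with at least 25 cells per sum. Cells were left out in 3 further ways: doublets found by Scrublet (scanpy 1.11.5), which numbered 52 in library 1 and 26 in library 2, endothelial cells with at least 2 pericyte or 10 haemoglobin UMIs, and Macro from the immune class. Leaving out only the cells with 2 or more pericyte UMIs was added after the data were seen.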

Additional observations from a re-analysis of the deposited data

How the results depend on the processing

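With RLE size factors and with at least 25 cells per sum, all 81 member folds kept their direction and their side of the threshold. With DESeq2 10 lost their call, and with no replicate block 8 did. In the fibroblast pair the calls fell to 1 of the 5 with DESeq2, to 1 with no replicate block and to 2 in thinned cells. With the 335 pericyte-rich or haemoglobin-rich endothelial cells left out, 4 members were called in EC 1 against EC 2 (7 in the main fit) and 3 in EC 2 against EC 3 (6 in the main fit), where thinned cells also gave 3. With no filter on low counts 2 members, Id2 and Id1, were called in Mono 1 against Mono 2, against 1. In thinned cells 12 member calls were lost. Folds that changed sign were, in thinned cells, Smad7 in endothelium (-1.24), Bmpr2 in fibroblasts (-0.026), Smad1 (0.028) and Id2 (-0.020) in the fibroblast pair and Id3 in the monocyte pair (-0.046). Others were Bmpr2 in fibroblasts with an immune class of Mono 1 and Mono 2 (-0.0094), Acvrl1 in EC 1 against EC 2 with no filter (0.033), and, with doublets left out, Acvrl1 in the fibroblast pair (-0.00090) and Smad6 in the monocyte pair (-1.27). All of these but Smad7 were not called in the main fit. From 1 library alone the sign also differed for Smad6 in smooth muscle (-0.08), Bmpr2 (-0.0069), Smad6 (0.14) and Id1 (0.16) in fibroblasts, and Acvrl1 (-0.08) and Id2 (-0.04) in the fibroblast pair, and with equal weight of cells for Id2 in the fibroblast pair (-0.06), none of them called in the main fit. The causes were not tested.

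Without library 1, 17 of the 81 member folds differed from the fit by at least the SD of the 2 library folds. Without library 2, 40 did. These folds are CPM ratios of 1 library without TMM and not a new fit, so the counts also hold that change of method. The limit is narrow where the libraries are close. Counts of all genes called changed by over 1.5 times in thinned cells, with 1752, 2805, 2530 and 2726 called for the endothelial, smooth muscle, fibroblast and immune classes (3469, 5171, 4921 and 5270 in the main fit). The pairs EC 1 against EC 2, EC 1 against EC 3, EC 2 against EC 3, Fibro 1 against Fibro 2 and Mono 1 against Mono 2 gave 1278, 696, 683, 721 and 658 in thinned cells (2130, 1218, 1226, 1626 and 1797). With the pericyte-rich or haemoglobin-rich cells left out, EC 1 and EC 2 against EC 3 gave 715 and 711. For the fibroblast pair DESeq2 gave 1078 and no replicate block 939. Populations were paired within libraries through the library block. The study has 1 group, so no groups of mice were compared. Depth limits Smad6 most, with 602 UMIs in all.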
